A study of Mus musculus with 6 samples.

Results

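The 42 genes described here are the nuclear Nduf genes of respiratory complex I, found by matching gene symbols among 16331 probe sets of a liver expression array. They comprise 32 subunits, 8 assembly factors of the Ndufaf series, and Ndufa4 with its paralog Ndufa4l2, which are kept apart. The family was taken up because of 1 measurement in these same arrays, the lower reading of Ndufs5 in the knockout samples, and the question is whether the other members share it. Of 37 subunits listed for the family, 5 were not analysed here. The samples were 3 mouse liver samples labelled Ugcg-deficient (KO arrays 427, 429 and 431) and 3 liver samples labelled wildtype (WT arrays 426, 428 and 430). Ugcg encodes the ceramide glucosyltransferase that starts the synthesis of most glycosphingolipids. The labels used here give no strain, age or sex, no promoter or driver of the deletion, and do not say whether each sample was a separate animal, so each p-value rests on differences among these samples that could be technical in part.

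Complex I, NADH:ubiquinone oxidoreductase, is the largest enzyme of the mitochondrial respiratory chain and takes electrons from NADH to ubiquinone while pumping protons across the inner membrane. Its peripheral arm, in the matrix, holds the NADH and quinone modules with flavin and iron-sulfur clusters, and its membrane arm holds the proton pumps. Mitochondrial genes encode the central membrane subunits, nuclear genes encode the other core subunits and all the accessory ones, and separate assembly factors help to build the complex and then leave it. In hepatocytes it feeds ATP production and reoxidises the NADH made by fatty acid oxidation and amino acid breakdown.

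Values are log2 expression, 1 probe set per gene and array, and every difference is KO minus WT on that scale. Array medians lay between 6.79 and 6.81. Hepatocyte genes were high on every array, with mean list levels from 13.40 to 13.42 in KO arrays and from 13.37 to 13.41 in WT arrays over 9 measured markers, Alb among them. The Ugcg probe set read 7.12, 6.70 and 6.68 in KO arrays and 6.81, 6.85 and 6.87 in WT arrays; without the positions of the probes and of the deleted exons it checks no label. Genes of the exocrine pancreas stood high in WT 430 (mean of 10 genes 9.49, against 6.61 to 6.81 in the other arrays of both groups), muscle genes in KO 427 (mean of 5 genes 7.08, against 6.21 to 6.31) and adipose genes in KO 431 (mean of 4 genes 7.09, against 6.40 to 6.53). Bile duct genes stood highest in KO 429 by their mean (5 genes, 6.84, against 6.30 to 6.46), while Krt7 and Sox9 of this list were highest in WT 428. Among the muscle genes Myh4 was highest in WT 430, and among the adipose genes Cidec was highest in WT 426.

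Ndufs5 lies in the proximal part of the membrane arm, on the intermembrane space side, and belongs in human cells to the small proteins with paired cysteines that are folded by a disulfide relay on import. Its promoter is shown because it carries the 10-base element bound by NRF1 (nuclear respiratory factor 1), a transcription factor of respiratory chain genes, and because several members that did not pass the test carry the same element. The 300 bases span the RefSeq gene start (GRCm38.p6, chr4:123718137-123718436, minus strand). Capitals mark the match to the letters searched, GCGCA, any base, then GCGC, and its first base lies 98 bases before that start.
Ndufs5 promoter: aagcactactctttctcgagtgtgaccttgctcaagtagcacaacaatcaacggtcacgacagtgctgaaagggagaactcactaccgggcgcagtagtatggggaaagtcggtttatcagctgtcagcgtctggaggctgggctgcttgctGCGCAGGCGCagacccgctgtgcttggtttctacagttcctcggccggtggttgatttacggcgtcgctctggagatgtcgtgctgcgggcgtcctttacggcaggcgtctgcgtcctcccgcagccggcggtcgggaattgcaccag

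Of 37 members with such a window, 8 held the element, read on either strand (21.6%), against 1114 of 12693 genes that have both a probe set and a window (8.78%). The other 7 are shown with 10 bases on the left and 10 on the right of the match, read along the strand of the gene, with the match in capitals (all GRCm38.p6 from RefSeq).
Ndufa11 (chr17:56717692-56717721, plus strand): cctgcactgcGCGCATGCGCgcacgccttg
Ndufa8 (chr2:36049349-36049378, minus strand): ctagagcagtGCGCTTGCGCgtcgctggag
Ndufs6 (chr13:73328479-73328508, minus strand): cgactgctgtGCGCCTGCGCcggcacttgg
Ndufa5 (chr6:24527697-24527726, minus strand): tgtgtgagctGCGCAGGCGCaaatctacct
Ndufa6 (chr15:82354249-82354278, minus strand): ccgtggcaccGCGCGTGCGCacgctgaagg
Ndufaf4 (chr4:24897960-24897989, plus strand): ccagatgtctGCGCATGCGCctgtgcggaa
Ndufaf5 (chr2:140170652-140170681, plus strand): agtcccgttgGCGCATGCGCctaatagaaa
The letters AANATGGCG, a core of the YY1 element, stood in 8 of the 37 windows (21.6%, against 4.36% of genes with a probe set), with Ndufs6 holding both elements, and the ETS core CCGGAAG in 5 (13.5%, against 15.3%). Both strands were searched. These matches describe the letters in the windows and show no binding.

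In KO livers Ndufs5 read 10.39, 10.15 and 10.20, against 11.02, 11.07 and 11.03 in WT livers. All KO arrays lay below all WT arrays, and the highest KO array was 0.63 below the lowest WT array. The means were 10.24 ± 0.13 in KO and 11.04 ± 0.025 in WT (SD, n = 3 each), a difference of -0.80 (SE 0.081), so that the KO level was 57.6% of the WT level. This difference drew attention to the family: Ndufs5 was 1 of 4 probe sets past the threshold of a limma adjusted p under 0.05 (0.0245% of all probe sets; 2 were lower in KO, 0.0122%), at 0.0379, and these values describe why the gene was chosen and test nothing. Among all 16331 probe sets, 18 had a difference as low or lower. Leaving out any 1 array kept the difference between -0.87 and -0.75, while the limma adjusted p passed above the threshold each time. It was 0.0517 without KO 427, 0.114 without KO 429, 0.230 without KO 431, 0.169 without WT 426, 0.120 without WT 428 and 0.0687 without WT 430. Without WT 430 and KO 427, the arrays with pancreatic and with muscle transcripts, the difference was -0.87 and the limma adjusted p 0.0221. In bulk liver RNA, fewer cells of a type and less RNA per cell cannot be told apart. Whether the Ndufs5 probes also read Ndufs5-ps, a transcribed pseudogene in the RefSeq table with no probe set of its own, cannot be told from the values.

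None of the other 31 subunits passed the threshold (limma adjusted p from 0.982 to 0.998), and none reached an unadjusted p under 0.05, which 4.99% of all probe sets did. Of these 31, 19 had a difference above 0 and 12 below, from -0.21 for Ndufa12 to 0.11 for Ndufs4. Their median was 0.019 (-0.014 without WT 430), beside 0.0059 over all probe sets, and their median distance from 0 was 0.049, beside 0.063. Their spread between arrays was smaller too, with a median pooled SD within groups of 0.073, beside 0.10. The 36 measured genes of respiratory complexes II to V were alike, at 0.039 for the distance and 0.073 for the SD. The 31 subunits read from 9.26 to 12.58, above the array medians of 6.79 to 6.81. The part of this level in the small distance and spread was not tested. The limma 95% intervals of all 31 lay above the -0.80 of Ndufs5, as did those of 16245 of all 16331 probe sets. For Ndufs5 itself the interval ran from -0.98 to -0.61. Among the 31, the lowest bound was -0.51 for Ndufa12 and the next -0.26 for Ndufb6, and the highest bound was 0.28 for Ndufb11. With 3 arrays a group, a change that lies within a gene's own interval could not be told from no change. Of 30 named members other than Ndufs5, the differences of 29 moved by over 1.5 times without at least 1 array, and that of Ndufa1 did not. The KO and WT arrays did not overlap for 2 of the 31 (6.45%), against 9.57% of all probe sets. KO lay below WT for Ndufa1, as for 4.47% of all probe sets, and above WT for Ndufs4, as for 5.1%.

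**Figure D1:**
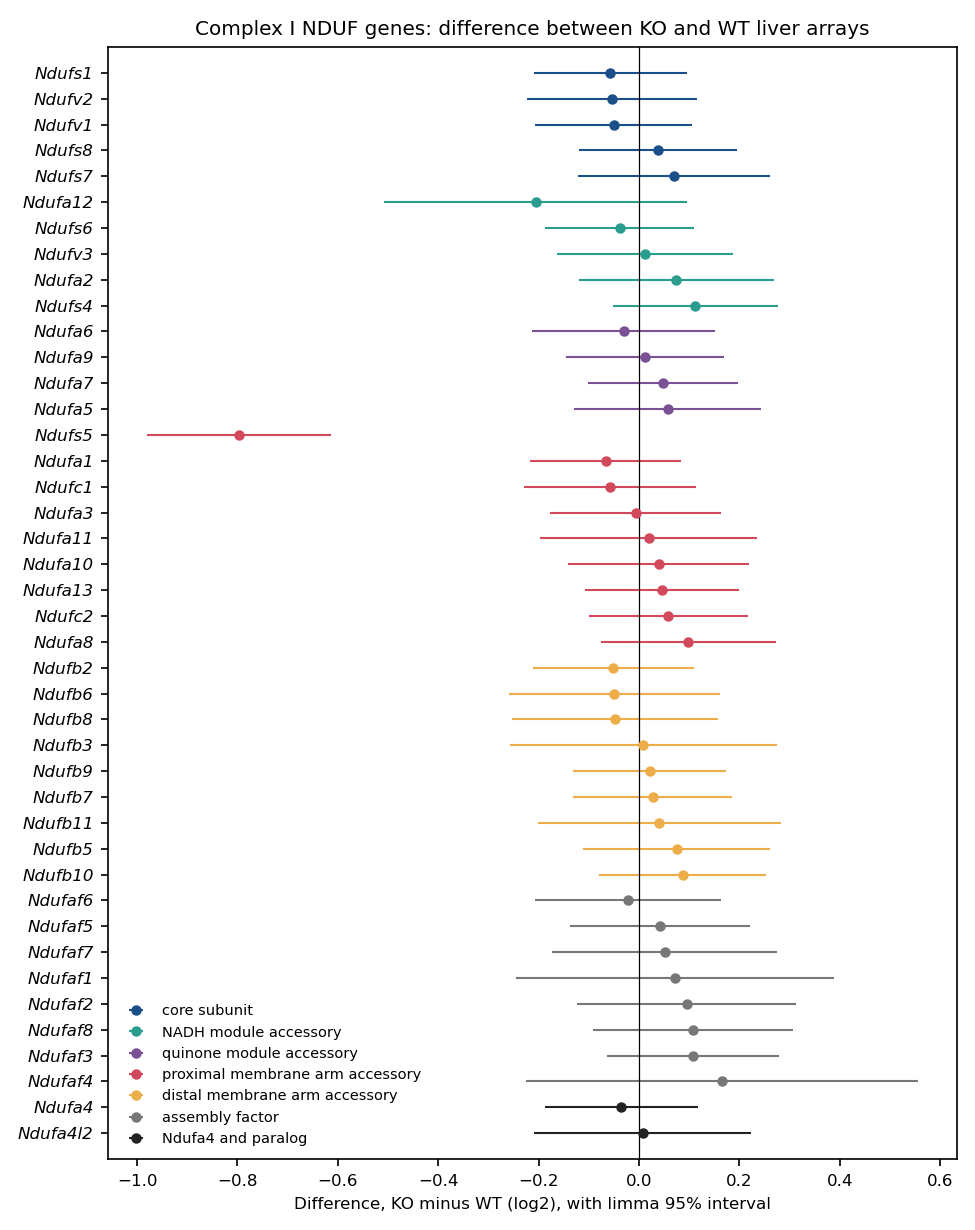
Difference between KO and WT liver arrays (x axis, log2, KO minus WT) for each of the 42 Nduf genes, grouped by role; points are limma estimates and lines their 95% intervals (3 KO and 3 WT arrays). Ndufs5 stands at -0.80, and no interval of another member reaches that value. The intervals of 16245 of all 16331 probe sets also lie above it.

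The nearest partners of Ndufs5 are the other accessory subunits of the proximal membrane arm, and all 8 of them were measured. None passed, 5 had a difference above 0 and 3 below, and the median was 0.029. Ndufc1 read 10.96, 11.00 and 10.99 in KO livers and 11.15, 10.95 and 11.01 in WT livers. Ndufc2, which with Ndufc1 packs beside the mitochondrially encoded pump subunit of this region, read 11.35, 11.24 and 11.28 in KO livers and 11.26, 11.27 and 11.17 in WT livers. The groups overlapped for both genes, with differences of -0.058 (SE 0.076) for Ndufc1 and 0.059 (SE 0.070) for Ndufc2. Ndufa10, which has a nucleoside kinase fold and sits on the matrix face of this region, read 11.51, 11.56 and 11.60 in KO livers and 11.39, 11.57 and 11.60 in WT livers (0.039, SE 0.079). Ndufa8 is, like Ndufs5, a protein with paired cysteines in the intermembrane space. It read 11.39, 11.45 and 11.34 in KO livers and 11.18, 11.37 and 11.34 in WT livers, so that the lowest value was WT 426 and the difference was 0.098 (SE 0.077, limma adjusted p = 0.982). The 95% interval of the Ndufa8 difference ran from -0.076 to 0.27, and without WT 426 the difference was 0.041.

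Ndufa1, a short single-span subunit encoded on the X chromosome, read 12.34, 12.28 and 12.33 in KO livers and 12.42, 12.38 and 12.35 in WT livers. All KO arrays were below all WT arrays, and the difference was -0.067 (SE 0.066, limma adjusted p = 0.984). Ndufa11, a membrane subunit at the contact with complex III in supercomplexes, read 10.18, 10.28 and 10.23 in KO livers against 10.26, 10.36 and 10.01 in WT livers. Its WT arrays held both the highest and the lowest value, and the difference was 0.019 (-0.079 without WT 430). Ndufa13, also known as GRIM-19, had a difference of 0.045 and Ndufa3, a small single-span subunit, of -0.0065. Set per array against each gene's mean over the 6 arrays, the median of these 8 partners was 0.0020, 0.041 and -0.010 in KO arrays and -0.0094, 0.025 and -0.021 in WT arrays. On the same scale Ndufs5 stood at -0.25, -0.50 and -0.45 in KO arrays and at 0.38, 0.43 and 0.39 in WT arrays.

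**Figure D2:**
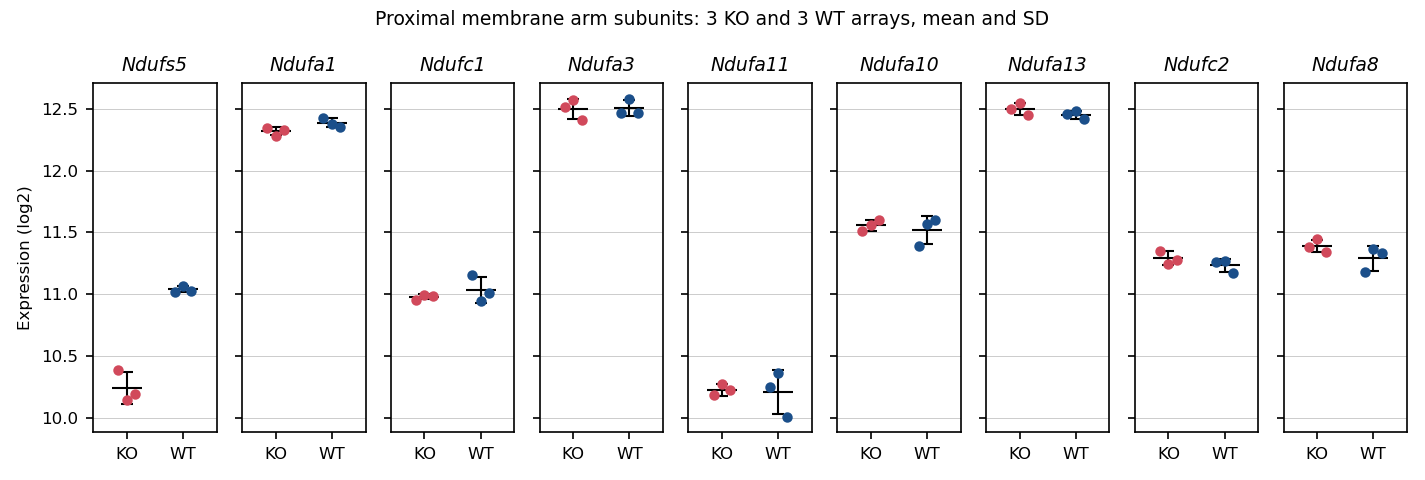
Log2 expression (y axis) of the 9 proximal membrane arm subunits in 3 KO arrays (red, left) and 3 WT arrays (blue, right), with group mean and SD in black. The groups do not overlap for Ndufs5 (-0.80) and Ndufa1 (-0.067) and overlap for the other 7; levels of different genes come from different probes and are not to be set against each other.

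The core subunits carry the cofactors of electron transfer, and 5 of the 7 encoded in the nucleus were analysed. Their differences ran from -0.057 to 0.069, with 2 above 0 and 3 below and none past the threshold. Ndufs1, the large iron-sulfur protein of the NADH module, read 10.45, 10.41 and 10.50 in KO livers and 10.55, 10.49 and 10.49 in WT livers (-0.057, SE 0.067). Ndufv1, which binds NADH and the flavin, read 11.02, 11.04 and 11.11 in KO livers and 11.06, 11.16 and 11.11 in WT livers (-0.051, SE 0.069). The groups overlapped in both. Ndufs7 and Ndufs8 hold the iron-sulfur clusters nearest to quinone. Ndufs7 read 10.96, 10.98 and 10.76 in KO livers and 10.74, 10.87 and 10.88 in WT livers, which is the widest spread of the 5 core genes, with a difference of 0.069 (SE 0.084) that was 0.024 without WT 426 and 0.14 without KO 431. For Ndufs8 the difference was 0.038 (SE 0.069), and for Ndufv2, the small iron-sulfur partner of Ndufv1, it was -0.054 (SE 0.075).

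Both extremes of the 31 other subunits were accessory subunits of the NADH module. Ndufs4, needed for a stable NADH module and lost in a mouse model of Leigh syndrome, read 10.17, 10.17 and 10.10 in KO livers and 10.09, 10.08 and 9.94 in WT livers. Every KO array lay above every WT array, with a difference of 0.11 (SE 0.073, limma adjusted p = 0.982). Without WT 430, the lowest array for Ndufs4, the difference was 0.066. Ndufa12, which takes its place late in assembly, read 11.18, 11.19 and 11.31 in KO livers and 11.77, 11.30 and 11.22 in WT livers. WT 426 alone stood high, the groups overlapped, and the difference of -0.21 (SE 0.13, limma adjusted p = 0.982) was -0.038 without that array. Leaving out any other 1 array kept the Ndufa12 difference between -0.31 (without WT 430) and -0.18 (without KO 427). Ndufa2, a thioredoxin-fold subunit, had a difference of 0.074 (-0.0013 without KO 429), Ndufv3 of 0.012, and the zinc-binding Ndufs6 of -0.039.

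In the quinone module all 4 accessory genes were measured, and their differences stayed between -0.031 and 0.057. Ndufa9, a subunit at the joint of the arms that binds a nucleotide, read 11.09, 11.08 and 11.18 in KO livers and 11.15, 11.12 and 11.06 in WT livers (0.012, SE 0.069). Ndufa7 read 11.49, 11.42 and 11.44 in KO livers and 11.42, 11.37 and 11.42 in WT livers (0.048, SE 0.066). Ndufa5 had a difference of 0.057 and Ndufa6, which docks a mitochondrial acyl carrier protein, one of -0.031. The groups overlapped in all 4.

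Of 12 listed accessory genes of the distal membrane arm, 9 were measured, 6 with a difference above 0 and 3 below, between -0.051 and 0.087. Ndufb10, a cysteine-rich subunit of the intermembrane space side, read 11.03, 11.10 and 10.98 in KO livers and 11.04, 10.92 and 10.89 in WT livers (0.087, SE 0.073). Ndufb7, the distal arm's counterpart with paired cysteines, had a difference of 0.027 (SE 0.070). The differences were 0.075 for Ndufb5, 0.040 for Ndufb11, 0.021 for Ndufb9, -0.048 for Ndufb8, -0.049 for Ndufb6 and -0.051 for Ndufb2, all with overlapping groups. Ndufb3 read 9.60, 9.32 and 9.37 in KO livers and 9.26, 9.35 and 9.66 in WT livers, with 1 high array in each group, KO 427 and WT 430, and a difference of 0.0085. Muscle transcripts were high in KO 427 and pancreatic ones in WT 430, and their part in the Ndufb3 values was not tested. KO 427 (-11.9) and WT 430 (-14.5) also stood together on the main axis of variation over all probe sets (first principal component). The other arrays lay from 3.69 to 9.44 on that axis, and its part was not tested either.

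Array by array, the median deviation of the 31 subunits other than Ndufs5 from their gene means was 0.012, 0.021 and -0.010 in KO arrays and 0.033, 0.0068 and -0.033 in WT arrays. WT 430 had the lowest value of the 6 arrays for 10 of the 31 subunits and the highest for 1, and it lay lowest of all arrays in the median. The 3′ minus 5′ difference of control probes, which depends on RNA integrity and labelling, overlapped between the groups for Gapdh and beta-actin. For Gapdh it was 0.095, -0.017 and 0.074 in KO arrays and 0.058, 0.028 and 0.13 in WT arrays, and for beta-actin it ran from 0.74 to 0.94 in KO arrays and from 0.69 to 0.93 in WT arrays. For the pyruvate carboxylase control it ran from 2.87 to 3.04 in KO arrays and from 3.08 to 3.25 in WT arrays, so that the groups did not overlap, as with Ndufs5. The part of this in the Ndufs5 values was not tested.

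**Figure D3:**
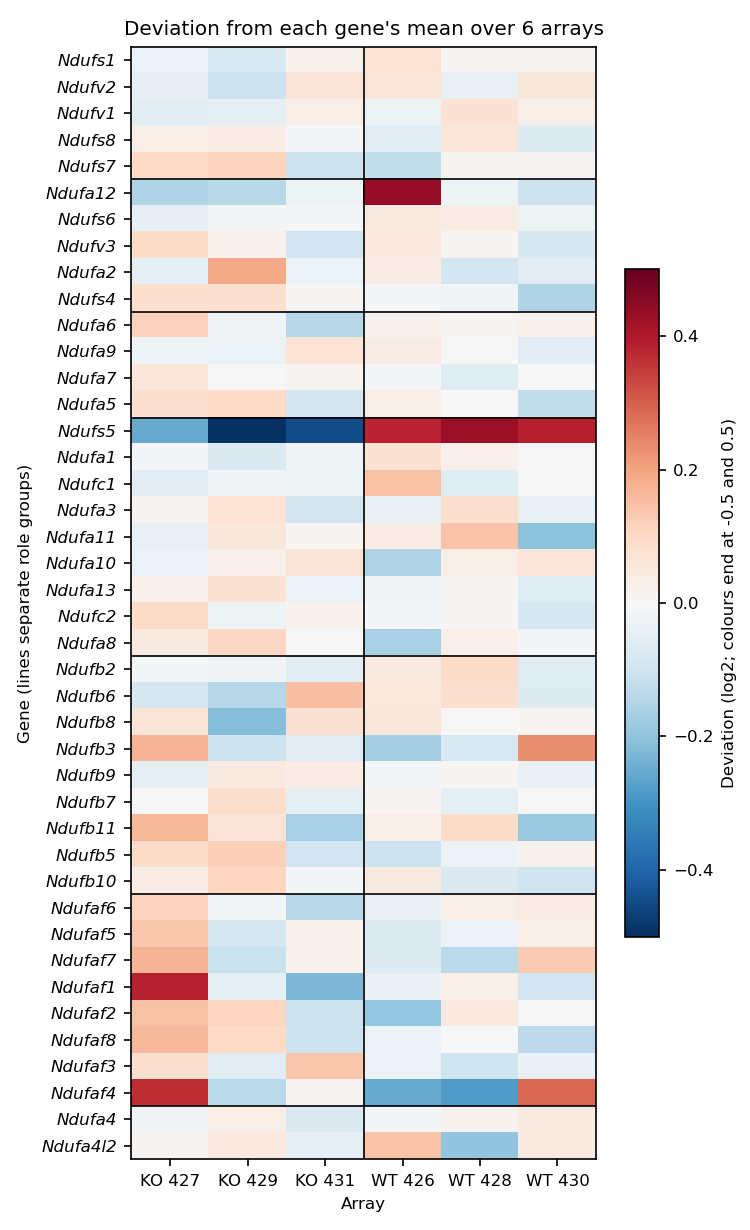
Deviation of each gene from its own mean over 6 arrays (colour, log2) for the 42 Nduf genes (rows, grouped by role) in KO arrays (left 3 columns) and WT arrays (right 3 columns). Ndufs5 divides the groups, while Ndufa12 is high in WT 426, Ndufb3 and Ndufaf4 are high in KO 427 and WT 430, and most assembly factors are highest in KO 427.

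The assembly factors are described apart. None of the 8 passed the threshold, against 0.0245% of all probe sets. None reached an unadjusted limma p under 0.05, against 4.99%. The groups overlapped for all 8, while they did not overlap for 9.57% of all probe sets. Among 8 genes, counts of 0 lie near these shares. Of the 8, 7 had a difference above 0 and 1 below, with a median of 0.083. For 7 of the 8 the highest array was KO 427, whose median deviation was 0.15, against -0.053 and -0.045 in the other KO arrays and -0.052, -0.014 and 0.017 in WT arrays. Without KO 427 the median difference of the 8 was 0.0037. That array also held the muscle transcripts given above, whose part in these values was not tested.

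Ndufaf3, which acts with Ndufaf4 early in building the quinone module in human cells, read 8.55, 8.41 and 8.60 in KO livers and 8.44, 8.37 and 8.43 in WT livers (0.11, SE 0.076). Ndufaf4 had the largest difference and the largest spread of the 8: it read 9.34, 8.84 and 8.99 in KO livers and 8.72, 8.69 and 9.26 in WT livers (0.17, SE 0.17), again with KO 427 and WT 430 high. Ndufaf2, a paralog of Ndufa12 that holds its place during assembly, read 8.68, 8.64 and 8.42 in KO livers and 8.34, 8.58 and 8.53 in WT livers (0.095, SE 0.096). That difference was 0.022 without WT 426 and 0.17 without KO 431. Ndufaf8, the partner of the methyltransferase-like Ndufaf5, had a difference of 0.11 (SE 0.088), and Ndufaf6 the 1 below 0 (-0.023, SE 0.082). Ndufaf5 itself had a difference of 0.041 and Ndufaf7, an arginine methyltransferase of a core subunit, of 0.051. Ndufaf1, which acts in a membrane arm assembly complex with Ecsit and Acad9, read 9.30, 8.87 and 8.69 in KO livers against 8.88, 8.94 and 8.82 in WT livers, with KO 427 at the top and KO 431 at the bottom (0.072, SE 0.14).

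Ndufa4, named as a complex I subunit but now assigned to cytochrome c oxidase, read 12.12, 12.17 and 12.07 in KO livers and 12.13, 12.16 and 12.18 in WT livers (-0.035, SE 0.067). Its paralog Ndufa4l2, induced by hypoxia in other cells, read 6.70, 6.73 and 6.63 in KO livers and 6.83, 6.48 and 6.73 in WT livers (0.0072, SE 0.095). The groups overlapped for both. Every Ndufa4l2 value but that of WT 426 lay below the array medians of 6.79 to 6.81, a level at which a probe set says little about a change.

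No other gene of complex I biogenesis passed the threshold. Of 9 measured assembly and import genes with other names, 7 had a difference above 0 and 2 below (median 0.093). None was at an unadjusted limma p under 0.05, against 4.99% of all probe sets. For 2 of the 9, Gfer and Tmem70, named after their values were seen, all KO arrays lay above all WT arrays (22.2%, against 5.1% of all probe sets). Tmem70, an assembly factor of the membrane arm and of ATP synthase, had a difference of 0.14 (SE 0.073). Gfer, the sulfhydryl oxidase of the disulfide relay that folds proteins such as Ndufs5, read 9.22, 9.21 and 9.23 in KO livers and 9.03, 9.06 and 9.18 in WT livers (0.13, SE 0.070, limma adjusted p = 0.982). Chchd4, the import receptor of that relay, had a difference of 0.25 (SE 0.12, limma adjusted p = 0.982) with overlapping groups. It is named beside Gfer for its role, also after its values were seen. The 2 genes of this list below 0 were Timmdc1 (-0.059) and Aifm1 (-0.0098). Of 8 measured regulators of respiratory chain genes, 4 had a difference above 0 and 4 below. Ppargc1a, the coactivator of mitochondrial biogenesis, was the 1 of these 8 with an unadjusted limma p under 0.05 (12.5%, against 4.99% of all probe sets). It read 7.01, 6.78 and 6.62 in KO livers and 7.01, 7.14 and 7.25 in WT livers, where KO 427 equalled WT 426, and its difference of -0.33 (SE 0.11) had a limma adjusted p of 0.951. The KO 429 and KO 431 values of Ppargc1a lay below the array medians of 6.79 to 6.81.

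The other respiratory complexes and the mitochondrial ribosome served for comparison. Both lists were matched by symbol and hold probe sets below the array medians of 6.79 to 6.81, among them Cox7b2, Atp5g1 and Mrpl41. Such probe sets say little about a change. Of 36 measured genes of complexes II to V, 20 had a difference above 0 and 16 below, with a median of 0.0062. None passed the threshold, and none was at an unadjusted limma p under 0.05, against 4.99% of all probe sets. The lowest difference of the 36 was -0.21. Of 66 genes of the mitochondrial ribosome, 47 had a difference above 0 and 19 below, with a median of 0.040 and none past the threshold. At an unadjusted limma p under 0.05 were 2 of the 66 (3.03%, against 4.99% of all probe sets). The ribosomal median deviation was highest in KO 427 (0.092), the array in which most assembly factors were highest. The lowest difference in the ribosomal list was -0.13.

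**Figure D4:**
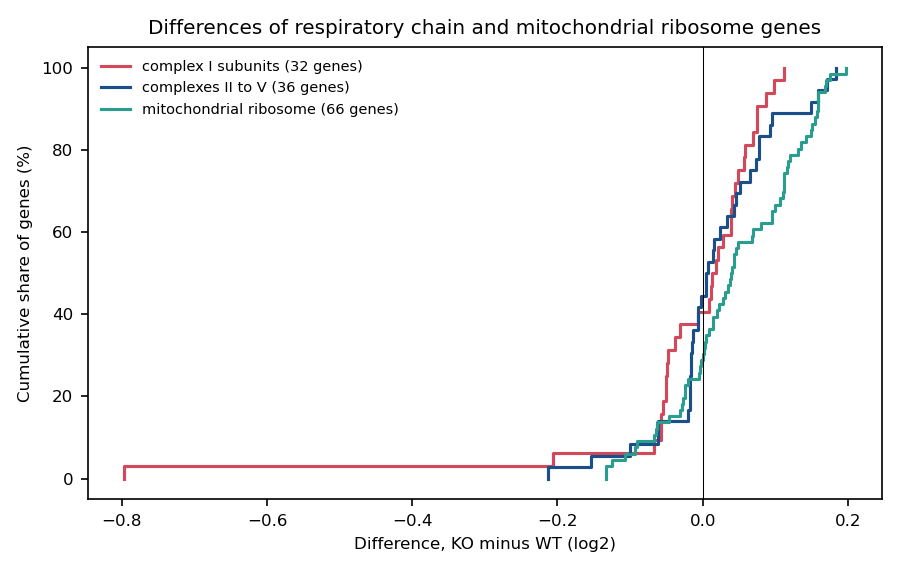
Cumulative share of genes (y axis, percent) by difference between KO and WT (x axis, log2, KO minus WT) for 32 complex I subunits, 36 genes of complexes II to V and 66 of the mitochondrial ribosome. The complex I curve starts at -0.80 with Ndufs5 and then at -0.21, and the curves of the other lists start at -0.21 and -0.13.

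The neighbours of Ndufs5 on chromosome 4 did not pass the threshold. In RefSeq gene order the 4 measured genes on one side were Macf1, Oxct2a, Bmp8a and Heyl and the 4 on the other Mycbp, Rragc, Gm2164 and Pou3f1. Their differences ran from -0.10 for Macf1, a cytoskeletal linker, to 0.15 for Rragc, a GTPase of amino acid sensing (limma adjusted p of 0.982 or more for all 8), and the groups overlapped in each. Heyl, Bmp8a, Oxct2a, Gm2164 and Pou3f1 read below the array medians of 6.79 to 6.81 on every array. At that level a probe set says little about a change. Mycbp, the next measured gene, read 8.14, 8.19 and 8.21 in KO livers and 8.13, 8.04 and 8.21 in WT livers. Ugcg is on the same chromosome, with 304 measured genes between it and Ndufs5.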

How the data were processed

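Per the labels' protocols, RNA of 6 mouse liver samples was labelled and read on 1 Affymetrix array each. The authors deposited log2 expression values (5.38 to 14.69, the scale read from their range); the sources used here name no array type, summarisation, normalization or software. Rows carry 1 Entrez number each, so a value pools whatever parts of a transcript the probes read. Of 16395 rows, 64 controls were left out; of the other 16331, 15644 had 1 symbol, 0 several and 687 none, and 15617 matched RefSeq (GRCm38.p6), used for names, gene order and promoters. KO was compared with WT by limma 3.58.1 (R 4.3.3; lmFit, eBayes; two-sided p; degrees of freedom 4 residual, 4.85 prior). The p-values were adjusted over all 16331 by Benjamini and Hochberg's method, threshold 0.05. The fit was tested on simulated data. Figures used matplotlib 3.10.9. The number of arrays limits precision.

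Members and lists were chosen with earlier results of these data known. Named by rule were Ndufs5, the proximal arm, Ndufa4 and Ndufa4l2, and members whose groups do not overlap. The rule also named, per role group, the 3 smallest p and the difference nearest 0. Further members were named after their values were seen, as were Gfer, Tmem70, Chchd4, Timmdc1 and Aifm1. From other lists genes at an unadjusted p under 0.05 were to be named; Mrpl16 and Mrps25 (0.20 and 0.17) complete these, with Tat (0.43) of the hepatocyte markers. Markers of Kupffer cells, endothelium and bile ducts had median differences of -0.11, -0.014 and 0.21, with 0 of 7, 6 and 5 genes past the threshold; the bile duct median was 0.028 without KO 429. Alternatives were other normalizations, filters, variance priors and weights, and leaving out arrays.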

Additional observations from a re-analysis of the deposited data

How the results depend on the processing

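Ndufs5 kept its direction under all 12 alternatives (-0.87 to -0.75). Leaving out any 1 array ended its call: without 1 array the difference ran from -0.87 to -0.75, the count of subunits past the threshold was 0 each time, and the count of all probe sets past it ran from 0 to 4, with 584 to 1135 at an unadjusted p under 0.05. Over all probe sets, 8 passed with array quality weights, 8 without WT 430 and KO 427 together and 8 at an adjusted p under 0.1, against 4. No assembly factor passed under any alternative, and none of the 30 members named by rule did (lowest limma adjusted p of these 30, 0.707). Without WT 430, 1 of the 8 assembly factors and 1 of the 31 other subunits, Ndufa12, reached an unadjusted limma p under 0.05. Among all probe sets 1135 did so without that array. The median of the other 31 subunits was -0.016 without WT 430 and KO 427 together and -0.014 to 0.037 without 1 array. Of 30 named members other than Ndufs5, 17 kept their sign and 13 did not. Signs turned with quantile normalization for Ndufb3 (-0.0020), Ndufv3 (-0.0015) and Ndufa9 (-0.0023). They turned with array weights for Ndufv3 (-0.0063) and Ndufa11 (-0.0025), and without WT 430 and KO 427 for Ndufv3 (-0.067), Ndufa11 (-0.057), Ndufc2 (-0.0020) and Ndufa5 (-0.016). Without 1 array, signs turned within -0.075 to 0.13 for Ndufb3, -0.030 to 0.063 for Ndufv3, -0.0013 to 0.12 for Ndufa2, -0.090 to 0.081 for Ndufa4l2, -0.079 to 0.094 for Ndufa11, -0.084 to 0.042 for Ndufaf6, -0.042 to 0.037 for Ndufa3, -0.095 to 0.033 for Ndufa6, -0.020 to 0.033 for Ndufa9, -0.026 to 0.078 for Ndufa10 and -0.10 to 0.00033 for Ndufc1. The cause of these changes was not tested. The assembly factor median, added after the data were seen, ran from 0.0037 to 0.12 without 1 array. No paired analysis was possible because the groups share no replicate numbers. With 3 arrays a group, the smallest p an exact permutation test allows is 0.1.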
